A study of Sparassis latifolia with 18 samples.

Results

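EVM0006776 is a gene annotated with a TEA/ATTS domain, 1 of 1100 genes in the table used here, most of which carried no annotation. It was chosen by its course over these libraries, as were the genes described with it. Its values are therefore given as a description, with no test. The study added sterilized pine sawdust to liquid cultures of Sparassis latifolia, an edible brown-rot fungus of conifer wood, at staggered times and harvested all mycelium together for RNA-Seq, so that the groups differ in the length of pine sawdust inducing (PSI). An exposure of 0 h was the control (CK), and the 5 longer exposures are called 1h and 6h for hours and 1d, 5d and 10d for days. All cultures came from strain SP-C, so that a single strain stands for the species. Each of the 6 groups had 3 libraries, 18 in total, described by the study as biological replicates. The study left 4 libraries out of its tests of expression, namely T-5d-2, T-1d-3, T-1h-3 and CK-1, and values are given here with all 18 libraries and with the 14 kept ones.

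The TEA domain is a DNA-binding domain of transcription factors from fungi to animals. Its best known fungal members are AbaA, which acts in the development of the spore-bearing conidiophore of Aspergillus, and Tec1, which acts in filamentous growth of budding yeast. In animals the family is known as TEAD. The study's annotation gave EVM0006776 the Pfam name TEA/ATTS domain family, and its best Swiss-Prot match was the conidiophore development regulator abaA of Penicillium digitatum. No function in S. latifolia was given. A second gene with this annotation, EVM0006332, was not analysed here, and neither were protein sequences or genome positions.

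The table gave fragments per kilobase scaled to the total of mapped fragments (FPKM), a level corrected for length and depth, and no read counts, so that the depth behind a single gene was unknown. Of the 1100 genes, 1093 reached an FPKM of 1 in 2 or more libraries and were analysed. Correlations between libraries of one group lay between 0.950 and 0.996. How the genes of the table had been picked is not given in the sources used here, so shares of all genes refer to this table and not to the genome.

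EVM0006776 was low in CK, highest after 1 h of PSI and intermediate at the later times. In CK it had 24.5, 29.6 and 31.7 FPKM. At 1h it had 325, 226 and 163 FPKM. All 3 libraries of 1h stood far above all CK libraries, with the left-out T-1h-3 the lowest of them. At 6h the gene had 123.1, 122.5 and 121.3 FPKM, which was below every 1h library and above every library of the other groups. At 1d it had 88.6 and 79.1 FPKM in the kept libraries, and 40.2 FPKM in T-1d-3. At 5d it had 107.8 and 96.8 FPKM in the kept libraries, and 27.6 FPKM in T-5d-2. T-5d-2 thus lay among the CK libraries, above the left-out CK-1 and below both kept ones, while T-1d-3 remained above them. At 10d the levels were 54.3, 62.3 and 48.8 FPKM, again above every CK library.

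**Figure D1:**
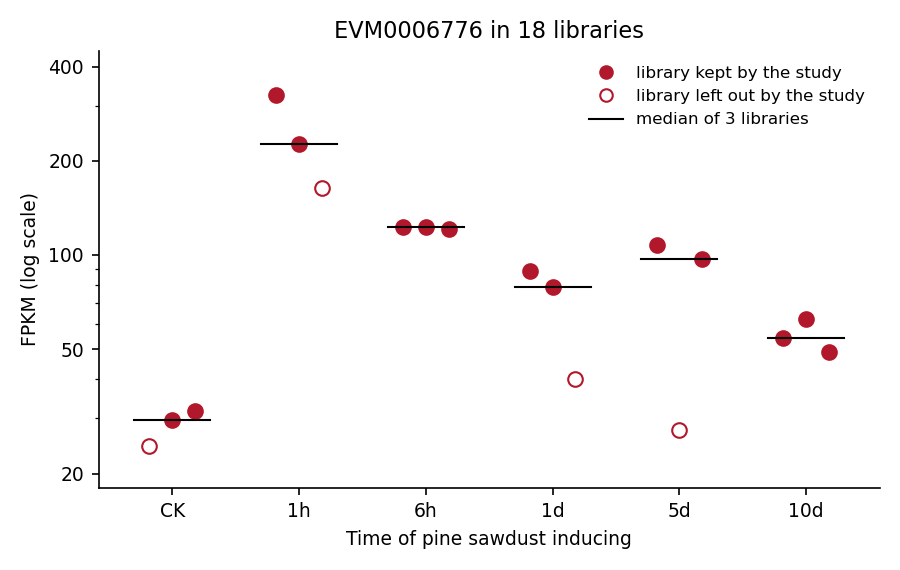
FPKM of EVM0006776 on a log axis in each of the 18 libraries, by time of pine sawdust inducing. Filled points are libraries kept by the study, open points the 4 left-out libraries, and lines the medians of 3 libraries. The medians run from 29.6 FPKM in CK over 226 FPKM at 1h to 54.3 FPKM at 10d, and each open point is the lowest of its group.

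In means and SD over 3 libraries each, the level was 28.6 ± 3.68 FPKM in CK, 238 ± 81.5 FPKM at 1h, 122 ± 0.939 FPKM at 6h, 69.3 ± 25.6 FPKM at 1d, 77.4 ± 43.5 FPKM at 5d and 55.1 ± 6.77 FPKM at 10d. The SD was largest at 1h and smallest at 6h, and relative to the mean it was largest at 5d, at 56.2%. Ordered by median, the groups ran 1h, 6h, 5d, 1d, 10d and CK. Neighbours in this order did not overlap between 1h and 6h, between 6h and 5d, and between 10d and CK. The ranges of 5d and 1d, of 1d and 10d, of 5d and 10d, and of 5d and CK overlapped. Of the 15 pairs of groups, 11 did not overlap in all 18 libraries, against a median of 9 pairs over all genes. Without the 4 left-out libraries no pair overlapped, which was the case for 103 genes with EVM0006776 included (9.42%). The median over all genes was then 13 pairs.

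Differences from CK are given on the scale of log2(FPKM + 1) with the SE of a fit across all genes. With the 14 kept libraries, EVM0006776 differed from CK by 3.10 at 1h (SE 0.15), 1.96 at 6h (SE 0.13), 1.42 at 1d (SE 0.15), 1.71 at 5d (SE 0.15) and 0.82 at 10d (SE 0.13). The ratios of mean FPKM to CK were 8.99, 3.99, 2.74, 3.34 and 1.80 at these times. With all 18 libraries the differences were 2.97, 2.07, 1.18, 1.19 and 0.92, each with an SE of 0.41. The difference of 1d and 5d thus moved with the choice of libraries, whereas 1h stood above CK by a similar amount either way. The median of all genes moved little at 1h, by -0.12, and by -0.44 at 10d.

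With the kept libraries, the gene was lower at each exposure after 1h than at the one before, 5d excepted. On the same scale and with the 14 kept libraries, 6h stood at -1.14 relative to 1h (SE 0.13), 1d at -0.54 relative to 6h (SE 0.13), and 10d at -0.89 relative to 5d (SE 0.13). With all 18 libraries these steps were -0.90, -0.89 and -0.27, each with an SE of 0.41, so that the step between 5d and 10d was then less than its SE. The step from 1d to 5d was 0.28 (SE 0.15) with these libraries and 0.01 (SE 0.41) with all 18. The step to 5d was thus less than 2 SE in both sets. With the kept libraries 10d stood at -2.28 relative to 1h (SE 0.13), a ratio of mean FPKM of 0.200.

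Few genes had a larger rise at 1h. By the 14 kept libraries, 4 of 1088 genes exceeded the 1h difference of EVM0006776, 24 exceeded its 6h difference, 48 its 1d difference, 40 its 5d difference and 268 its 10d difference. The 4 genes at 1h, named after their values were seen, were EVM0000940, EVM0005970, EVM0010427 and EVM0002866. For EVM0005970, EVM0010427 and EVM0002866 the median of CK was listed at 0, so no fold is given. Ranked by FPKM from the top of the 1100 genes within a library, EVM0006776 stood at 485 to 514 in CK, at 69, 119 and 172 at 1h, and at 316 to 364 at 10d. A median highest at 1h was found for 181 of 1093 genes (16.6%), whereas the full order of the 6 medians was shared by 5 genes including EVM0006776 (0.457%). The other 4, named after their values were seen, were EVM0010137, EVM0004008, EVM0006352 and EVM0003117.

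The genes whose log2(FPKM + 1) was most like that of EVM0006776 were ranked by Pearson r over the 18 libraries, which share 6 groups and the same 4 left-out libraries. Over 1092 other genes r had a median of 0.02 and lay between -0.54 and 0.71 from the 5th to the 95th percentile. In 15 genes r was at least 0.8, in 1 gene at least 0.9, and in 3 genes at most -0.8. The 20 genes with the highest r are described here. The last of them, EVM0005092, had an r of 0.790, and the next gene, EVM0003837, had an r of 0.787. No annotation beyond the identifier was used for 18 of the 20. EVM0001276 and EVM0005092 are in the study's list of genes changed at every time, without a Pfam domain.

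**Figure D2:**
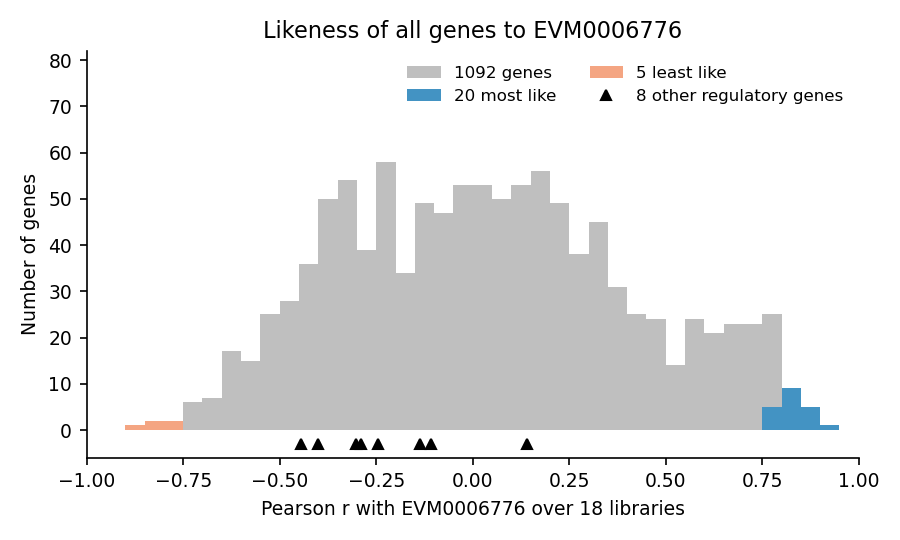
Number of genes by Pearson r of log2(FPKM + 1) with EVM0006776 over 18 libraries, for 1092 genes. Blue bars hold the 20 genes with the highest r (0.790 to 0.937), orange bars the 5 with the lowest (-0.864 to -0.759), and triangles mark 8 other regulatory genes, which lie between -0.445 and 0.142.

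EVM0010137 was the most alike, with an r of 0.937 and a Spearman rho of 0.957 over 18 libraries. It had 34.5, 31.7 and 34.0 FPKM in CK, 152, 122 and 68.8 FPKM at 1h, and 68.6, 68.7 and 74.7 FPKM at 6h. At 1d it had 49.2, 46.5 and 40.4 FPKM, at 5d 54.7, 37.4 and 51.0 FPKM, and at 10d 43.1, 38.3 and 43.1 FPKM. It had the same order of group medians, and its lowest libraries at 1h, 1d and 5d were likewise the left-out ones. Its range was narrower than that of EVM0006776. The ratio of EVM0006776 to EVM0010137 was 0.711 to 0.933 in CK, 1.85 to 2.38 at 1h, 1.62 to 1.79 at 6h and 1.13 to 1.63 at 10d. In T-1d-3 and T-5d-2 it was 0.996 and 0.739, against 1.70 to 1.97 in the other libraries of 1d and 5d. Without the 1h libraries r was 0.918, and with the 14 kept libraries 0.958.

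EVM0001276 was the second, with an r of 0.881. It had 57.9, 55.4 and 57.3 FPKM in CK, 402, 365 and 275 FPKM at 1h, and 419, 419 and 451 FPKM at 6h, so that its median was highest at 6h. T-1d-3 and T-5d-2, with 110 and 122 FPKM, were again far below the other libraries of 1d and 5d, which had between 232 and 357 FPKM. EVM0010450 followed with an r of 0.875 and also peaked at 6h. Its levels were 82.6 to 108 FPKM in CK, 188 to 212 FPKM at 1h and 215 to 234 FPKM at 6h. Without the 1h libraries its r was 0.961, the highest of all genes in that setting. EVM0005465 had an r of 0.868, with 74.3, 44.1 and 16.1 FPKM at 1h, against 6.35 to 7.15 FPKM in CK.

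EVM0005028, EVM0004008 and EVM0011245, with r of 0.866, 0.860 and 0.839, followed the group medians more closely than the departures of single libraries. T-5d-2 was the lowest library of 5d in all 3 genes, as in EVM0006776, but T-1h-3 was the highest of 1h. In EVM0004008 it had 306 FPKM, against 204 and 236 FPKM in its partners. The correlation within groups, after the mean of each group was removed, was 0.08 for EVM0004008, 0.03 for EVM0005028 and 0.217 for EVM0011245, whereas it was 0.706 for EVM0010137 and 0.893 for EVM0010450. EVM0000940 had the steepest peak of the 20, with 409, 366 and 308 FPKM at 1h and 7.37 to 10.7 FPKM in CK. By 5d it had 4.14 to 11.6 FPKM and overlapped CK, and its within-group correlation was -0.13.

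EVM0000218 (r of 0.801) differed from the others in its course and had the highest within-group correlation of all genes, 0.972. Its median was highest at 1d. It had 668 and 510 FPKM in the kept libraries of 1d but 59.3 FPKM in T-1d-3, and 426 and 397 FPKM in those of 5d but 15.7 FPKM in T-5d-2. In CK it had 13.3, 40.8 and 47.0 FPKM. T-5d-2 thus lay within the CK range for this gene also, but only through the left-out CK-1, as it was below both kept CK libraries.

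As a set, the 20 genes were chosen by this likeness, so their common course is no finding. By median, 16 peaked at 1h, 3 at 6h and 1 at 1d. The lowest median was in CK for 13 and at 10d for 7. In all 20, every library of 1h and 6h lay above every CK library. Over all genes, 49.8% did not overlap in either direction between 1h and CK, and 61.0% between 6h and CK. The ratio of mean FPKM at 1h to CK ran between 1.78 and 41.3 with a median of 3.07, below the 8.33 of EVM0006776 in the same 18 libraries. At 10d the ratio to CK ran between 0.630 and 2.50, with a median of 1.14. None of the 20 was among the 115 new genes, transcripts that the study assembled outside its annotation and that made up 10.5% of the genes tested.

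**Figure D3:**
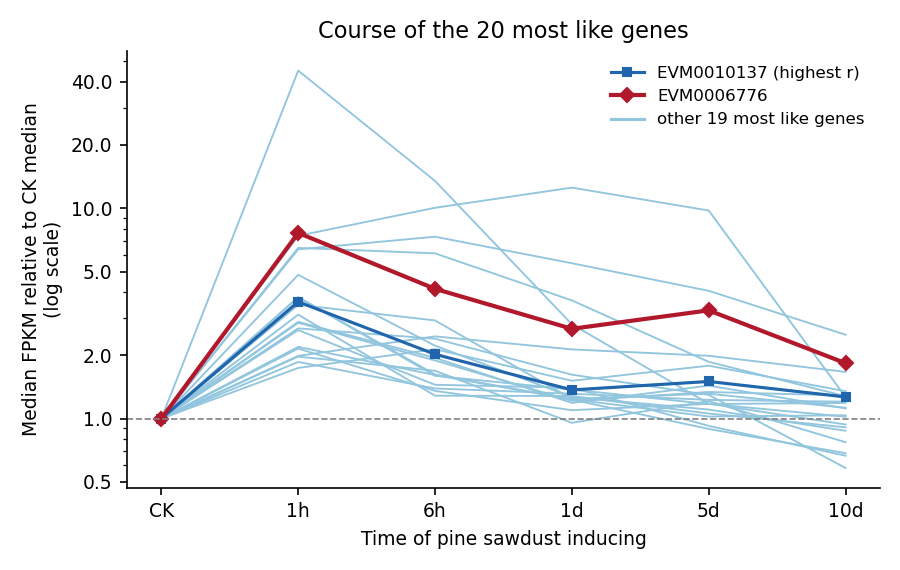
Median FPKM of 3 libraries relative to the CK median, on a log axis, by time of pine sawdust inducing, for EVM0006776, for EVM0010137 (highest r) and for the other 19 of the 20 most like genes. By these medians 16 of the 20 peak at 1h, and 7 are lowest at 10d rather than in CK.

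The within-group correlation was above 0 in 16 of the 20 genes, against 50.8% of all genes, and above 0.8 in 4, against 5.77% of all genes. The 4 were EVM0001276, EVM0010450, EVM0006783 and EVM0000218. The overall r includes these departures, so this measure is not independent of the choice. Without the 3 libraries of 1h, r was above 0.8 in 9 of the 20, and at least 0.8 in 16 of all 1092 genes. The libraries that remain also entered the r by which the 20 were chosen.

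The 5 genes with the lowest r ran the other way. All had their lowest median at 1h. EVM0012408, with an r of -0.864, had 91.4, 102 and 104 FPKM at 1h, against 238, 233 and 236 FPKM in CK. EVM0003719, with an r of -0.839, had 166, 145 and 140 FPKM at 1h, against 367, 400 and 422 FPKM in CK. EVM0012217 (r of -0.848) and EVM0008184 (r of -0.771) stayed at or below 6.30 FPKM in every library. EVM0000590 (r of -0.759) had 5.56 to 9.12 FPKM at 1h, against 16.9 to 20.2 FPKM in CK, and at least 18.1 FPKM at 10d.

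In each of the 4 left-out libraries EVM0006776 lay below both kept libraries of its group, which was the case in all 4 for 176 of 1093 genes (16.1%). The departure from the mean of the kept libraries, on the log2(FPKM + 1) scale, was -0.31 in CK-1, -0.73 in T-1h-3, -1.04 in T-1d-3 and -1.85 in T-5d-2. The medians over all genes were -0.09, -0.06, 0.06 and -0.01 in these libraries. In T-5d-2, 15 genes (1.37%) departed further downward. T-5d-2 fell within the CK range, CK-1 included, for 135 genes (12.4%), EVM0006776 and 7 of the 20 most like genes among them. T-1d-3 fell within that range for 258 genes (23.6%), 5 of the 20 among them but not EVM0006776. Of these 20 genes, 12 lay below both kept libraries in CK-1, 13 in T-1h-3, 14 in T-1d-3 and 14 in T-5d-2. Of all genes, 51.1%, 46.8%, 35.7% and 44.9% did so in these libraries, so that the count in CK-1 was near the share of all genes. What set these libraries apart was not tested. In RNA from whole mycelium, fewer hyphae expressing a gene and less RNA per hypha cannot be told apart.

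**Figure D4:**
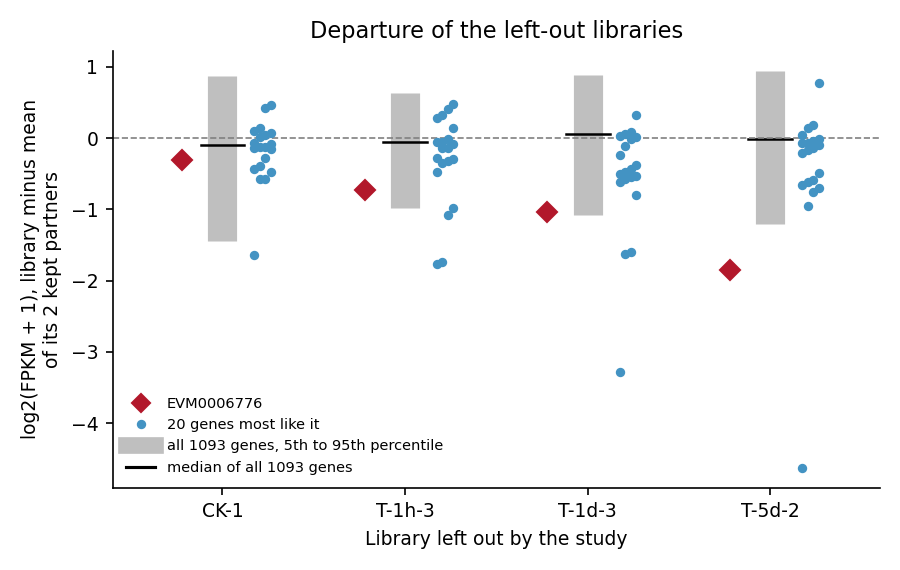
Departure of each library left out by the study from the mean of its 2 kept partners on the log2(FPKM + 1) scale, for EVM0006776 (diamonds), the 20 genes most like it (points) and all 1093 genes (grey bars from the 5th to the 95th percentile, with the median as a line). EVM0006776 is below 0 in all 4 libraries and below the grey bar in T-5d-2, at -1.85.

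Other regulatory genes were taken from the study's 2 lists of PSI genes. The first held the genes changed at every time. The second held genes of a module that followed time, kept where they were also changed at 10d. Both lists were made on these libraries and are not independent evidence of a direction. Genes were called by limma with the 14 kept libraries where the fold change exceeded 2 and the adjusted p was under 0.01. Of the 83 genes of the second list that were tested, 57 were called higher at 5d and 73 at 10d. A late rise of genes from that list is therefore no finding. Shares of all genes called are given for the 14 kept libraries only. Counts called with all 18 libraries, here and below, therefore have no matching share beside them. Across all genes tested, 10.6% were called higher and 7.44% lower at 1h, 13.9% higher and 8.82% lower at 6h, 8.55% higher and 18.3% lower at 1d, 14.2% higher and 22.3% lower at 5d, and 18.5% higher and 35.0% lower at 10d.

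Besides EVM0006776, the lists held 3 genes with a DNA-binding transcription factor domain, of which 2, both from the second list, were in the table used here. The third, EVM0006332, is listed by the study as higher at every time, 1h included. It was absent from the table, so its levels are not known here. EVM0008764 encodes a C2H2 zinc finger protein and EVM0011849 a homeobox protein, both of which are common classes of DNA-binding regulators. Neither was called at 1h, 6h or 1d by limma, with the 14 kept libraries or with all 18. At an unadjusted p under 0.05 regardless of fold, 1 of the 2 passed at 1h, 1 at 6h and 2 at 1d. At 1d EVM0008764 was higher, with a log2 difference of 0.36, and EVM0011849 lower, with -0.49. The share of all genes passing this cut was not counted, so these counts cannot be read as an early response. EVM0008764 was called higher at 5d and both were called higher at 10d. EVM0008764 had 145, 127 and 139 FPKM at 10d, against 58.6, 37.2 and 37.3 FPKM in CK. Its log2 difference was 1.85 (SE 0.10, limma adjusted p = 2.99e-09). The difference at 5d was 1.56 (SE 0.11) with a limma adjusted p of 6.91e-08. EVM0011849 had 48.3, 45.4 and 46.1 FPKM at 10d, against 33.9, 14.2 and 16.0 FPKM in CK. Its log2 difference was 1.57 (SE 0.11, limma adjusted p = 2.77e-08) with the kept libraries and 1.19 (SE 0.27, limma adjusted p = 9.52e-04) with all 18. Their r with EVM0006776 was -0.246 and -0.302. In all 4 left-out libraries both were above both kept libraries of the group, which was the case for 172 of 1093 genes (15.7%). In T-5d-2 they had 162 FPKM for EVM0008764 and 34.3 FPKM for EVM0011849.

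**Figure D5:**
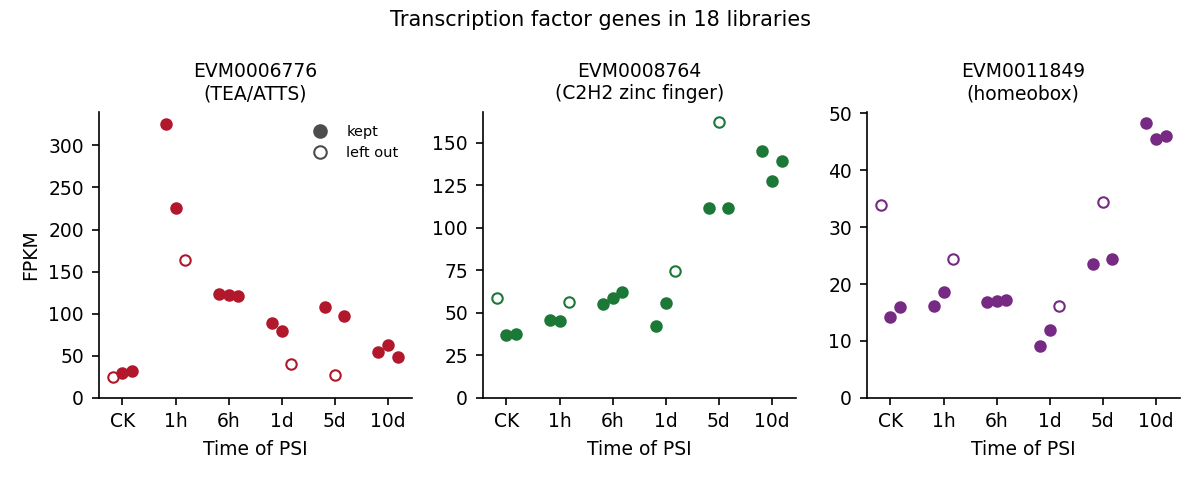
FPKM of EVM0006776, EVM0008764 and EVM0011849 in each of the 18 libraries by time of pine sawdust inducing (PSI), each on its own axis from 0. Open points are the 4 libraries left out by the study. EVM0006776 is highest at 1h (163 to 325 FPKM), and the medians of EVM0008764 and EVM0011849 are highest at 10d (139 and 46.1 FPKM).

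The 6 regulatory and signalling genes, all from the second list, also peaked late, which the choice of that list favoured. By median, 5 were highest at 10d and 1 at 5d. By limma, none was called at 1h or 6h, 1 was called lower at 1d, 3 higher at 5d and 5 higher at 10d. With all 18 libraries the counts at 1d were 1 higher and 0 lower, and 2 were called higher at 5d and 6 at 10d. At an unadjusted p under 0.05 regardless of fold, 1 of the 6 passed at 1h and 5 at 6h. Among those at 6h EVM0005606 was lower, with a log2 difference of -0.73, and the others were higher. Here too the share of all genes was not counted, so these counts are no finding. EVM0002907, which encodes an F-box protein, a class that selects substrates for ubiquitin ligases, had 1173, 1151 and 1233 FPKM at 10d, against 412, 122 and 137 FPKM in CK. The log2 difference was 3.19 (SE 0.13, limma adjusted p = 1.57e-10). CK-1 stood apart here, as in both transcription factor genes above, and with all 18 libraries the difference was 2.63 (SE 0.47, limma adjusted p = 1.30e-04).

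EVM0010749, a RING finger gene of the ubiquitin system, and EVM0008266, a MYND finger gene, were higher at 10d by 2.02 (SE 0.20) and 1.93 (SE 0.21). EVM0009931 encodes a bacteriorhodopsin-like membrane protein, and was called higher by 2.04 at 5d (SE 0.10) and by 1.37 at 10d (SE 0.09). At 1d it differed by 0.95 (SE 0.10) with the kept libraries, which was below the fold needed, and by 1.00 (SE 0.24, limma adjusted p = 0.00271) with all 18, which was called higher. EVM0005606 has a BAG domain, found in cofactors of Hsp70 chaperones. It was lower at 1d by -1.09 (SE 0.15, limma adjusted p = 3.74e-05) and higher at 10d by 1.08 (SE 0.14, limma adjusted p = 7.96e-06). With all 18 libraries its 1d difference was -0.90 (SE 0.24), which was not called. EVM0010606, a BTB/POZ gene, differed by 0.95 (SE 0.22) at 10d with the kept libraries, which was not called, and by 1.07 (SE 0.29) with all 18, which was. The r of these 6 genes with EVM0006776 lay between -0.445 and 0.142.

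EVM0006776 belongs to the genes that the study lists as higher at every time. At 10d its ratio of mean FPKM to CK was 1.80 with the kept libraries and 1.93 with all 18. The study required a fold change of 2 by DESeq2, a test on read counts, which the table did not give. A ratio of FPKM is another measure, so these values do not show whether the gene passed there. With the kept libraries, the median log2 difference of all genes at 10d was -0.44, against 0.82 for EVM0006776. Of the 16 others, 10 were in the table used here. Of these, 10 were called higher at 1h, 7 at 6h, 9 at 1d, 9 at 5d and 7 at 10d with the kept libraries, and 4, 7, 6, 7 and 8 with all 18. Their r with EVM0006776 was above 0 in all 10, with a median of 0.658, against 0.02 over all genes. They were listed for a rise from CK at every time, as EVM0006776 was, so a positive r is no finding. The peak by median was at 1h in 2 of them, at 6h in 3, at 1d in 3, at 5d in 1 and at 10d in 1. The 17 genes listed as lower at every time were all called lower at each time with the kept libraries, and 9, 8, 11, 14 and 17 of them with all 18. The study had chosen them for this on the same kept libraries. Their r with EVM0006776 had a median of -0.241.

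Among the annotated genes of the list, EVM0006142, a hemopexin-domain gene, was close to EVM0006776 in its departures. It had 101, 63.3 and 15.4 FPKM at 1h, and no CK library had more than 12.5 FPKM. T-1d-3 and T-5d-2 had 10.1 and 5.32 FPKM, against 90.7 to 151 FPKM in the other libraries of 1d and 5d. EVM0000788, annotated as a GMC oxidoreductase, a family of flavin enzymes, ran the other way in these libraries. It had 700 and 757 FPKM in T-1d-3 and T-5d-2, against 279 to 433 FPKM in their partners, and its r with EVM0006776 was 0.147. EVM0010191, annotated as a protoglobin, had 142, 214 and 236 FPKM at 1h, against 47.4, 76.7 and 63.1 FPKM in CK, and an r of 0.686. EVM0008017, annotated with FAD binding domains, had an r of 0.759 and was highest at 6h, with 547, 535 and 525 FPKM, against 84.9, 71.0 and 67.4 FPKM in CK.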

How the data were processed

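RNA-Seq was performed on mycelium of strain SP-C in 6 groups of 3 libraries. Per the labels and the study's methods, mRNA was isolated with oligo(dT) beads and clean reads were aligned to the S. latifolia genome. The methods name STAR-RSEM for quantification, after alignment with HISAT2 and assembly with StringTie. The processing notes name HISAT2, StringTie and Bowtie 0.12.2 but not RSEM, so that the sources differ on the quantifier. The genome build is not given in the sources used here. The authors deposited one table of FPKM per gene and library, without counts, so a count test could not be used and the depth per gene is unknown. Groups came from the sample titles, and 0 per-sample columns were without a sample.

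Values were analysed as log2(FPKM + 1). Genes that reached an FPKM of 1 in 2 or more libraries were kept. limma 3.58.1 (R 4.3.3) with a variance trend was fitted to the 14 libraries kept by the study, all 6 groups in one fit, and p-values were adjusted over all 1088 genes by the Benjamini-Hochberg method. Calls needed a fold change over 2 and an adjusted p under 0.01. Likeness was Pearson r over 18 libraries for 1092 genes, without a p. The script was tested on simulated data.

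The members and lists were chosen with earlier results of these data known. Genes were named as follows: EVM0006776, the 20 genes with the highest and the 5 with the lowest r, and genes of the study's 2 lists. From the lists these were the transcription factor, regulatory and signalling genes present in the table, and the annotated genes listed as higher at every time. Any other gene was named after its values were seen. Alternatives were a replicate block, a pseudocount of 0.1, an adjusted p of 0.05, fits of all 18 libraries or of the 2 compared groups alone, values without the filter or after quantile normalization, and runs that left out each library in turn. For likeness, rho, the means of the 6 groups and the libraries without 1h were tried as well. Adding CK-1 to the 14 libraries was chosen after seeing the data. No pair of libraries was identical.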

Additional observations from a re-analysis of the deposited data

How the results depend on the processing

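The difference of EVM0006776 from CK kept its sign at each time under every alternative run. On the log2(FPKM + 1) scale it was 1.75 at 6h with quantile normalization, against 1.96, and with all 18 libraries 1.18 at 1d and 1.19 at 5d, against 1.42 and 1.71. Leaving out each library in turn gave 2.84 to 3.37 at 1h, against 3.10. The number of genes with r of at least 0.8 to EVM0006776 was 15. It was 25 with the 14 kept libraries and 69 with the means of the 6 groups, and 10 to 24 with each library left out. Of the 20 most like genes, 9 to 20 were shared with the 20 of each of 8 alternatives and 14 to 19 with each library left out. EVM0010137 was the closest gene in 6 of the 8 and in all 18 leave-one-out runs. The exceptions were EVM0011245 with group means and EVM0010450 without the 1h libraries. Counts of genes called at each time stayed within 1.5 times under all alternatives. EVM0005606 at 10d was 0.71 with quantile normalization, which was not called. The cause of these differences was not tested. Departures from the group means, not levels, were compared between same-numbered libraries of different groups. Their correlations over 26 pairs of the 14 kept libraries lay between -0.261 and 0.273. Of these libraries, 7 of 14 correlated best with their own number. With all 18, the correlations lay between -0.545 and 0.446, and 2 of 18 did so. With 2 or 3 libraries in a group, this check could not decide whether same-numbered libraries deviated together. With the replicate block the 1h difference was 3.03 (SE 0.15), and 17 genes had r of at least 0.8. With 2 or 3 libraries in a group and no counts, differences between 1d, 5d and 10d were not resolved in all 18 libraries.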
